A study of Mus musculus with 6 samples.

Results

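The liver is the main site at which amino acids that are not needed for protein synthesis are broken down, and 36 enzymes of these routes, outside the branched-chain pathway, were examined in the livers of mice that lacked NEK7 in hepatocytes. The enzymes were chosen by name, with earlier results of these data known, and all 36 were found among the 17975 genes of the expression table. They fall into 8 routes, namely tyrosine with the recycling of its cofactor tetrahydrobiopterin, tryptophan, serine with threonine and glycine, glutamate with its partners, proline, histidine, lysine and cysteine. Of the 36, 35 had enough counts to be tested among 13805 genes, and Tdh, the threonine dehydrogenase gene, was left out with at most 11 counts in any liver.

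RNA was sequenced from whole liver of 3 WT mice and 3 homozygous knockout mice (Hom, labelled NEK7 hepatocyte knock-out). The Hom mice carried NEK7 fl/fl with Alb-Cre, a recombinase driven by the albumin promoter and so aimed at hepatocytes, on a C57BL/6 background. Neither the age nor the sex of the 6 mice is given in the labels, and the sources used here do not state whether the WT mice carried floxed alleles or Cre. NEK7 is a mitotic kinase that the study examined for a role in hepatocyte mitochondria, and the comparison asks how gene expression differs in the liver without it.

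Hepatic amino acid breakdown begins with an enzyme that commits each amino acid to its own route. For tyrosine this is tyrosine aminotransferase, for tryptophan it is tryptophan 2,3-dioxygenase, for serine it is serine dehydratase and for histidine it is histidase. The carbon skeletons end as glucose precursors, ketone body precursors or NAD, the nitrogen is passed through glutamate to urea, and several of the first enzymes are known for induction by fasting, glucagon and glucocorticoids.

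Each library held between 19349418 and 19730236 estimated counts. Levels are given as CPM, which are counts scaled to 1000000 per library after TMM scaling (factors of 0.806 to 0.924 in WT and 1.09 to 1.23 in Hom libraries). Nek7 itself was at 65.2 ± 3.36 CPM (SD, n = 3) in WT and 16.4 ± 1.83 CPM (SD, n = 3) in Hom livers, which is 25.2% of the WT level (log2 fold change −1.99, adjusted p = 0.000159 by edgeR). An exact permutation test of 3 against 3 livers gave p = 0.1 (two-sided), the smallest value such a test can give. Alb, the albumin gene that defines hepatocytes, was between 39606 and 123821 CPM, as befits the liver label.

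Hom replicate 1 stood apart from the other Hom livers. It had 0 counts of the Y-linked genes Ddx3y and Kdm5d, of which the other 5 libraries each had at least 243 counts. Of the Y-linked Eif2s3y it had 4 counts beside 582 to 1017 in the others, but of Uty it had 149 counts beside 464 to 725, and sex is not in the labels. It also had the highest Hom level for 30 of the 35 tested enzymes (85.7%), against 39.0% of all tested genes. This was not particular to the enzymes. Of the lists described below, it was highest for 14 of 18 secretory hepatocyte genes (77.8%), 10 of 14 regulators (71.4%) and 30 of 58 other amino acid genes (51.7%). It was highest for 4 of 8 stellate cell, 2 of 9 endothelial, 0 of 10 cholangiocyte and 0 of 8 macrophage genes. The counts of calls are therefore given with and without this liver.

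Most of the enzymes were lower in the Hom livers. Across the 35 tested, the median log2 fold change was −0.69, against −0.0018 for all tested genes, and 31 of 35 had a negative value. By the quasi-likelihood test of edgeR with Benjamini-Hochberg adjustment, 21 enzymes (60.0%) fell, beside 20.1% of all tested genes that fell. A single enzyme, Acmsd, rose, beside 21.5% of all tested genes, and 13 did not pass an adjusted p of 0.05. In 24 enzymes every Hom liver lay below every WT liver, which held for 27.0% of all genes, and in 1 enzyme every Hom liver lay above, which held for 28.7%. The 36 genes together held 1.53% to 1.71% of the counts of a WT library and 1.14% to 1.49% of a Hom library.

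Without Hom replicate 1, 29 of 35 enzymes (82.9%) fell and Acmsd alone rose, beside 18.1% and 19.2% of the 14077 genes then tested. This liver was set apart in part by its high levels of these same enzymes. The larger count without it thus follows in part from that choice. Leaving out any other liver gave 16 to 22 enzymes lower. All 22 enzymes called with 6 livers were called with 5, and the 8 added were Kmo, Sds, Gldc, Gls2, Gpt, Got1, Hal and Uroc1. The levels in Hom replicates 2 and 3 were both below the WT range for 30 of the 35 enzymes, against 32.3% of all genes. Hom replicate 1 was within or above the WT range for 11 of the 35, and the share of all genes was not counted. Its level was at least 1.5 times the mean of the other Hom livers for 14 of the 35, against 6.27% of all genes.

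**Figure D1:**
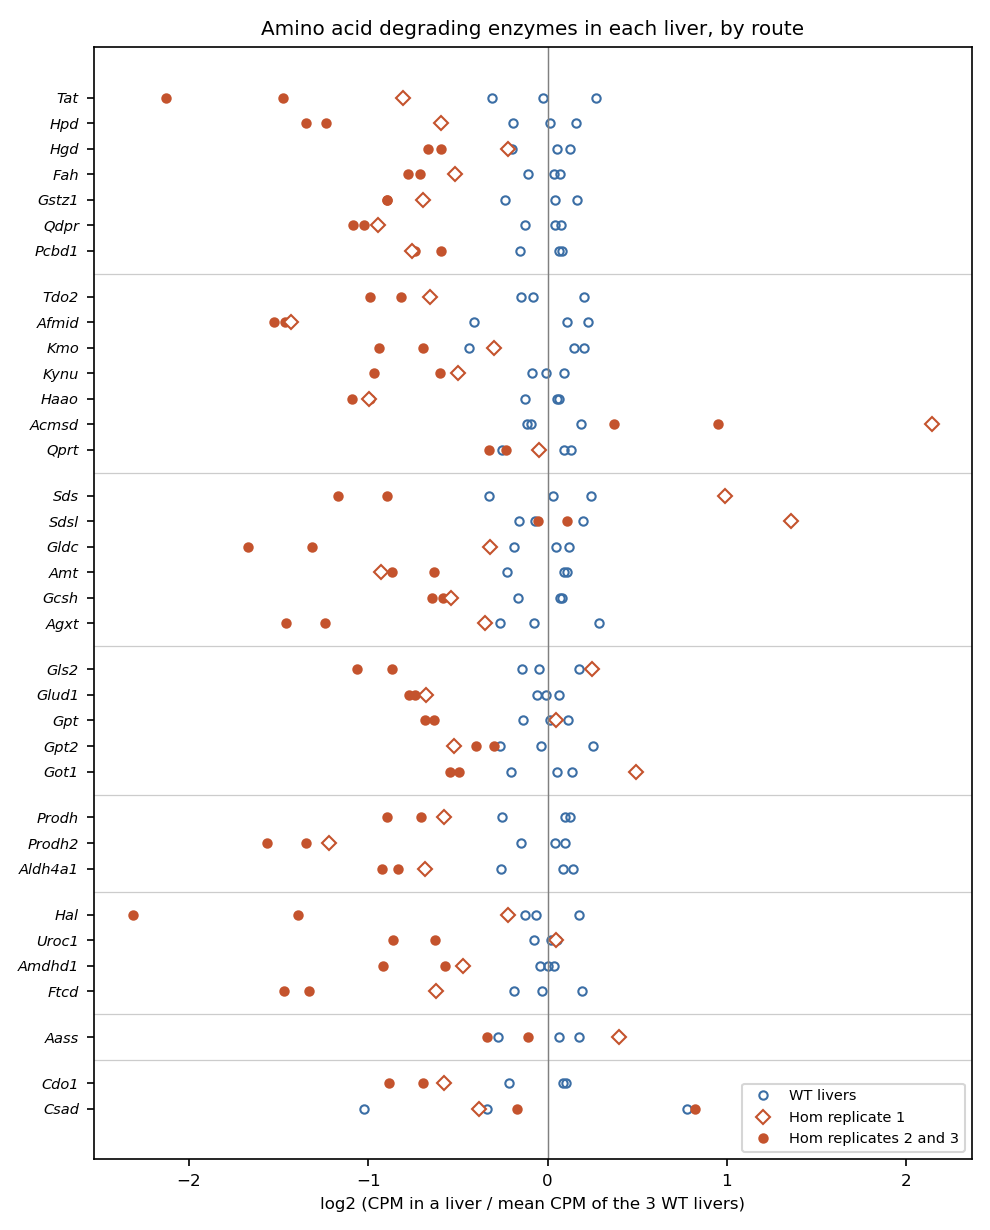
Level of the 35 tested enzymes in each liver, as log2 of CPM over the mean of the 3 WT livers (horizontal axis), grouped by route from tyrosine at the top to cysteine at the bottom. Open circles are WT livers, open diamonds Hom replicate 1 and filled circles Hom replicates 2 and 3, and the filled circles lie left of the WT circles for 30 of the 35 enzymes while the diamonds often lie nearer to or among the WT circles.

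The direction of a level between these livers depended on how the libraries were scaled, since the TMM factors differed between the groups. With library size alone the median of all genes was 0.45 in Hom against WT livers and that of the enzymes was −0.23. The enzymes thus lay 0.68 below all genes, beside 0.69 with TMM scaling. A library factor shifts all genes by about the same amount, so this gap cannot test the scaling. Scaled by library size alone, 9 enzymes fell and 3 rose (Acmsd, Sdsl and Aass), beside 4.65% and 47.6% of all genes. Those that fell were Tat, Hpd, Gstz1, Qdpr, Afmid, Haao, Prodh2, Aldh4a1 and Ftcd. When the libraries were scaled to a list of secreted proteins of hepatocytes, 7 enzymes fell (Tat, Hpd, Qdpr, Afmid, Haao, Prodh2 and Ftcd) and 2 rose (Acmsd and Sdsl), beside 3.73% and 32.9% of all genes. On each of these scales the other enzymes that fell with TMM scaling lost their calls. Qdpr, Afmid, Haao, Prodh2 and Ftcd fell under each of the 14 alternatives that were run.

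The count of calls was also taken under other choices. DESeq2 called 24 enzymes lower and 1 higher, beside 18.0% and 19.1% of its genes. With upper-quartile factors 19 fell and 1 rose, beside 14.9% and 25.2%, and with a replicate block 19 fell and 0 rose, beside 16.0% and 17.3%. The fewest calls among fits that left out a liver came without Hom replicate 3, with 16 lower and 0 higher, beside 12.6% and 14.2%. A change of at least 1 on the log2 scale was reached by 7 enzymes that fell and 1 that rose, beside 4.17% and 13.2% of all genes.

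Marker genes of several liver cell types moved with genotype as well. Of 18 tested secretory hepatocyte genes, 9 fell and 0 rose by edgeR (3 higher at an unadjusted p under 0.05, 2 by DESeq2; median log2 fold change −0.37), and their summed level was 180131 to 220916 CPM in WT and 115962 to 168932 CPM in Hom livers. All 10 cholangiocyte genes rose, from a summed 66.5 to 106 CPM to 655 to 919 CPM. Of 8 stellate cell genes 4 rose and 1 fell (309 to 376 CPM in WT, 575.5 to 630.3 CPM in Hom livers), of 9 endothelial genes 5 fell (255 to 354 CPM, then 181 to 184 CPM), and of 8 macrophage genes 2 fell and 1 rose (187 to 487 CPM, then 174 to 265 CPM). Without Hom replicate 1 the counts were 9 lower for hepatocyte, 10 higher for cholangiocyte, 3 higher and 1 lower for stellate cell, 5 lower for endothelial and 1 lower and 1 higher for macrophage genes. No gene of these lists was at 0 in any library. In whole liver, fewer hepatocytes and less enzyme RNA per hepatocyte cannot be told apart, and the part of cell composition in the results was not tested beyond the scaling to hepatocyte genes.

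**Figure D2:**
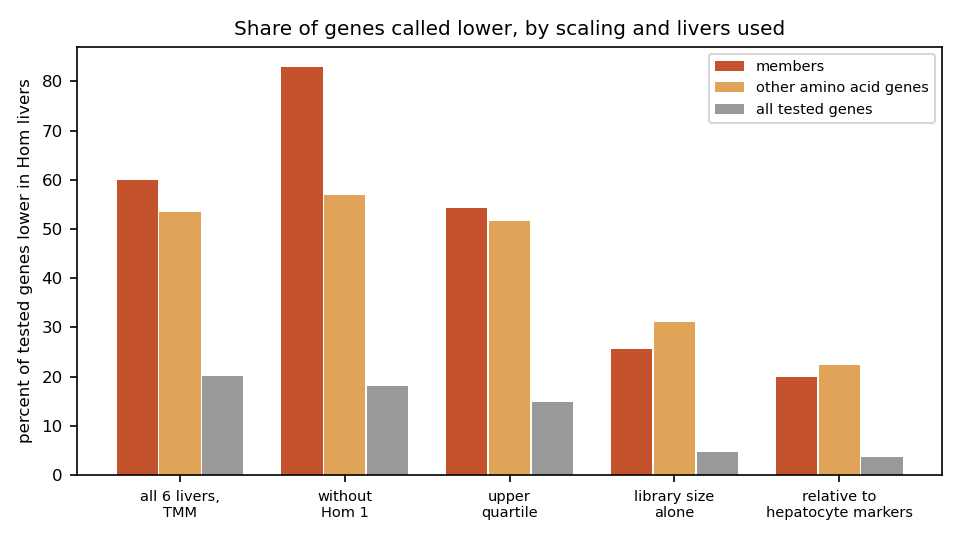
Share of tested genes that were called lower in the Hom group (adjusted p below 0.05; vertical axis, percent) for the 35 enzymes, 58 other amino acid genes and all tested genes, under 5 choices of scaling or livers. The enzymes stood at 60.0% with all 6 livers and 82.9% without Hom replicate 1, which was set apart in part by its levels of these enzymes. They stood at 25.7% and 20.0% with library size alone and relative to hepatocyte markers, beside 4.65% and 3.73% of all genes.

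The promoters of the enzymes with the largest falls over all 6 livers are shown here because the calls turn on RNA levels of these genes. The rule took the 2 largest falls (Afmid and Tat). Prodh2, whose change was within 0.01 of that of Tat on the log2 scale, was added after its value was seen. Windows run from 250 bases before to 50 after the transcription start and come from RefSeq on build GRCm38.p6, whereas the submitters' notes name mm9 for the data, so the counts do not share these coordinates. The Afmid window is chr11:117825669-117825968, that of Tat chr8:109990186-109990485 and that of Prodh2 chr7:30493408-30493707, all on the plus strand. Capitals mark matches to the motifs described next.
Afmid: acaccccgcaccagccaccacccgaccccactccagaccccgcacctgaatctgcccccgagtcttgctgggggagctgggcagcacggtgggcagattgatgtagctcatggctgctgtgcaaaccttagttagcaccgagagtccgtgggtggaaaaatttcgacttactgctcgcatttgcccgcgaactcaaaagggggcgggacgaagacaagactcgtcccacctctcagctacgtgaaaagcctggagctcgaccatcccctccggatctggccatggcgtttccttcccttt
Tat: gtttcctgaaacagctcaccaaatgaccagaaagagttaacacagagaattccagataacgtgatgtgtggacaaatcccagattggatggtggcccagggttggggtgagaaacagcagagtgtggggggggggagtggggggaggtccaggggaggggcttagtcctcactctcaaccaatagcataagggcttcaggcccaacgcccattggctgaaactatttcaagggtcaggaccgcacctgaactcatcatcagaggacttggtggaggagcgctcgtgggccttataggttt
Prodh2: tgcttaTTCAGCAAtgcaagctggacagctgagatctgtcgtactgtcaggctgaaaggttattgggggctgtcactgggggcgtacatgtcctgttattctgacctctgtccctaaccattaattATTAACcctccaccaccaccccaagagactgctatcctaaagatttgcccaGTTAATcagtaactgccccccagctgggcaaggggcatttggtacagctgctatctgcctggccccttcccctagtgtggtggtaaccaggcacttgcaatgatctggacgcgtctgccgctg

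Windows were found for 29 of the 36 genes, and none for Kynu, Sds, Sdsl, Tdh, Gls2, Gpt and Cdo1. Spellings for factors known from hepatic gene control were searched on both strands. The short HNF1 spelling GTTAAT was in 4 of 29 windows (Ftcd, Haao, Pcbd1 and Prodh2), beside 7.10% of all 32851 windows, and Prodh2 held it on both strands, at −124 and −73 from the start. The C/EBP spelling TTNNNCAA was in 14 of 29 (36.7% of all windows), with 1 match in Prodh2 at −244. The short CREB spelling TGACG was in 5 of 29 (20.8%), and the short glucocorticoid receptor spelling TGTTCT was in 4 of 29 (18.97%). None of the 29 held TTGCGCAA (0.183%, contained in the C/EBP spelling), TGACGTCA (1.79%, contains TGACG), CAAAGTCCA (0.475%) or CAAGGTCA (1.56%). The Afmid and Tat windows held no match to any of the 8 spellings.

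All 7 enzymes of the tyrosine route fell, beside 20.1% of all tested genes. Their summed level was 7411 to 8321 CPM in WT and 3042 to 4999 CPM in Hom livers. Tat, tyrosine aminotransferase, stood at 4053, 3304 and 2712 CPM in WT replicates 1 to 3 and at 1916, 769 and 1208 CPM in Hom replicates 1 to 3. Every Hom liver was below every WT liver, and the Hom mean was 38.7% of WT (log2 fold change −1.37, SE 0.34, adjusted p = 0.0187 by edgeR). The change was larger without Hom replicate 1 (−1.76, SE 0.28), while the call was lost without WT replicate 2 or without Hom replicate 3.

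Hpd encodes 4-hydroxyphenylpyruvate dioxygenase, the next step. Its levels were 1757, 2234 and 2022 CPM in WT and 1326, 786 and 850 CPM in Hom livers. The groups did not overlap, Hom replicate 1 was the highest of the Hom livers, and the mean fell to 49.3% of WT (log2 fold change −1.02, SE 0.23, adjusted p = 0.0132). Without Hom replicate 3 this call was lost as well. The later steps showed smaller falls with less spread. Gstz1, the maleylacetoacetate isomerase, was at 633, 838 and 768 CPM in WT and 460, 402 and 401 CPM in Hom livers (log2 fold change −0.83, SE 0.14, adjusted p = 0.00504). Fah, which cleaves fumarylacetoacetate in the last step, went from 664 ± 43.0 to 419 ± 40.7 CPM (SD, n = 3 each; log2 fold change −0.66). Hgd, homogentisate dioxygenase, had the smallest change of the route (−0.48, adjusted p = 0.0494), with Hom replicate 1 at 523 CPM beside a lowest WT liver of 532 CPM, and it kept its call in only 3 of the 14 alternatives.

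Qdpr and Pcbd1 act beside this route by recycling tetrahydrobiopterin, the cofactor of aromatic amino acid hydroxylation. Qdpr, dihydropteridine reductase, was at 317, 356 and 365 CPM in WT and 179.9, 170.3 and 163 CPM in Hom livers. Its Hom livers were close together and all far below WT, at 49.4% of the WT mean (log2 fold change −1.02, SE 0.10, adjusted p = 0.000747). Pcbd1, a carbinolamine dehydratase, was at 196, 227 and 230 CPM in WT and 129, 144 and 130 CPM in Hom livers (log2 fold change −0.69, SE 0.10, adjusted p = 0.00264). For both genes the value without Hom replicate 1 was similar, at −1.06 for Qdpr and −0.67 for Pcbd1.

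The tryptophan route runs through kynurenine towards NAD. In it 4 of 7 enzymes fell and 1 rose, beside 20.1% and 21.5% of all tested genes. Tdo2, the first enzyme, was at 1113, 1418 and 1167 CPM in WT and 781, 619.8 and 699.7 CPM in Hom livers. The groups were well separated (log2 fold change −0.82, SE 0.16, adjusted p = 0.00726). Afmid, the formamidase that releases kynurenine, had the largest fall of the 35 enzymes with all 6 livers, whereas without Hom replicate 1 those of Hal (−1.78) and Tat (−1.76) were larger than that of Afmid (−1.49). It was at 141, 201 and 219 CPM in WT and 69.4, 67.8 and 64.9 CPM in Hom livers, which lay within 5 CPM of each other, at 36.1% of the WT mean (log2 fold change −1.47, SE 0.17, adjusted p = 0.00112). Afmid shares 44.2% of its exon bases with Gm20708 on the same strand, so its counts could in part belong to that gene model.

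Kynu, kynureninase, went from 228 ± 14.2 to 143 ± 23.4 CPM (SD, n = 3 each), a log2 fold change of −0.67. Haao, 3-hydroxyanthranilate dioxygenase, was at 448, 512 and 508 CPM in WT and 245, 246 and 229.8 CPM in Hom livers, with no overlap and little spread within the Hom group (log2 fold change −1.03, SE 0.10, adjusted p = 0.000796). Kmo, kynurenine monooxygenase, did not pass by edgeR with 6 livers (−0.62, SE 0.22, adjusted p = 0.0612), with Hom replicate 1 at 256 CPM above WT replicate 1 at 233 CPM. It passed by DESeq2 with the same livers (adjusted p = 0.0167), without WT replicate 1 (adjusted p = 0.0209) and without Hom replicate 1 (−0.81, adjusted p = 0.0314). Qprt, which converts quinolinate for NAD synthesis, did not pass in any of the 14 alternatives (−0.20, SE 0.13), and its direction turned with library size alone (0.26) and with the scaling to hepatocyte genes (0.17).

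Acmsd, the decarboxylase that diverts the tryptophan intermediate away from quinolinate and NAD, was the enzyme that rose. It was at 32.7, 40.3 and 33.3 CPM in WT and at 157, 45.8 and 68.6 CPM in Hom livers. All 3 Hom livers were above WT, with Hom replicate 1 far above the others, and the mean was 255% of WT (log2 fold change 1.35, SE 0.42, adjusted p = 0.0396). Without Hom replicate 1 the log2 fold change was 0.69 (SE 0.19, adjusted p = 0.0343). The call was lost when any 1 WT liver or Hom replicate 3 was left out, and with the replicate number as a block (1.16, adjusted p = 0.0768).

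Of the 6 tested enzymes of serine, threonine and glycine breakdown 3 fell, beside 20.1% of all tested genes. The summed level in Hom replicates 1 to 3 was 1057, 397 and 461 CPM, beside 890.3 to 1036 CPM in WT. Sds, serine dehydratase, was at 316, 272 and 212 CPM in WT and at 529, 119 and 143 CPM in Hom livers. Hom replicate 1 was above every WT liver and the other Hom livers were below every WT liver, so the fold change over 6 livers was −0.02 (log2, SE 0.55, adjusted p = 0.984). Without Hom replicate 1 Sds fell (−1.03, SE 0.19, adjusted p = 0.0100). Its paralog Sdsl was lower in level, at 9.28 to 11.9 CPM in WT, and stood at 26.5, 11.2 and 9.96 CPM in Hom livers. Hom replicate 1 was again the highest, and no difference passed with 6 livers (0.61, SE 0.38) or without that liver (0.03, SE 0.16), although Sdsl rose with library size alone and with the scaling to hepatocyte genes. Part of the Sds exons, 21.3% of bases, overlap Plbd2 on the opposite strand.

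Of the 4 parts of the glycine cleavage system, Amt and Gcsh fell, while Gldc and Dld, its dehydrogenase from the wider list (−0.25, adjusted p = 0.0782), did not pass. Amt, the aminomethyltransferase, was at 51.7, 65.0 and 64.5 CPM in WT and 31.7, 33.1 and 39.0 CPM in Hom livers, with no overlap (log2 fold change −0.80, SE 0.12, adjusted p = 0.00323). Gcsh, the hydrogen carrier, was at 76.6, 90.1 and 91.0 CPM in WT and 59.0, 57.4 and 54.9 CPM in Hom livers (log2 fold change −0.59, SE 0.09, adjusted p = 0.00316). Hom replicate 1 lay with the other Hom livers for both, and both calls were lost with library size alone and with the scaling to hepatocyte genes. Gldc, the decarboxylase, was at 218, 270.0 and 256 CPM in WT and 199, 78.0 and 100.0 CPM in Hom livers. It had no overlap but did not pass by edgeR with 6 livers (−0.98, SE 0.33, adjusted p = 0.0501). It passed with the same livers by DESeq2 (adjusted p = 0.00540) and with the length correction (adjusted p = 0.0421), and it fell without Hom replicate 1 (−1.48, SE 0.16, adjusted p = 0.00210). Agxt, which transaminates alanine and glyoxylate to glycine, showed the same layout, with Hom livers at 212, 98.1 and 114 CPM and WT livers at 225 to 329 CPM. It passed with 6 livers (−0.93, SE 0.30, adjusted p = 0.0441) but in only 4 of the 14 alternatives.

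**Figure D3:**
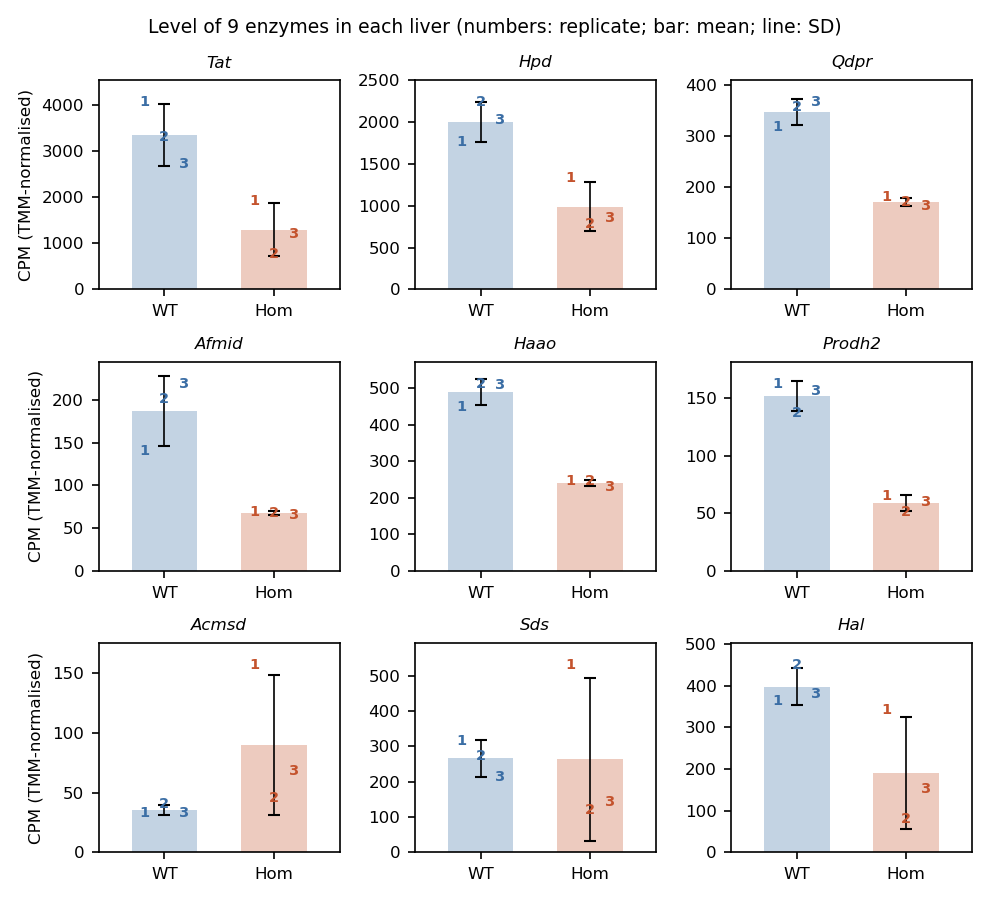
Level in CPM (vertical axes, from 0) of 9 enzymes in WT and Hom livers. Bars are group means, lines the SD of 3 livers and digits the replicate numbers. In the middle row and for Qdpr the 3 Hom livers lie close together and below WT, while for Acmsd, Sds and Hal the digit 1 of the Hom group stands above the others, at 157, 529 and 341 CPM.

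Of the 5 enzymes that handle glutamate, glutamine, alanine and aspartate, 1 fell (20.0%), a share near the 20.1% of all tested genes. Glud1, the mitochondrial glutamate dehydrogenase, was at 1385, 1334 and 1456 CPM in WT and 869.6, 814 and 834 CPM in Hom livers. The 3 Hom livers were close together at 60.3% of the WT mean (log2 fold change −0.73, SE 0.12, adjusted p = 0.00411). This call was lost with library size alone and with the scaling to hepatocyte genes. The Glud1 transcript has a pseudogene, Glud-ps, of 97.6% identity over 656 bases. Gls2, the liver glutaminase, was at 312 to 389 CPM in WT and at 409, 165 and 189 CPM in Hom livers. Got1, the cytosolic aspartate aminotransferase, was at 255 to 323 CPM in WT and at 414, 202 and 209 CPM in Hom livers. In both genes Hom replicate 1 was above every WT liver and the other Hom livers were below every WT liver, and neither passed with 6 livers (−0.44 and −0.10 on the log2 scale). Both fell without Hom replicate 1, by 0.96 (adjusted p = 0.00467) and 0.52 (adjusted p = 0.0247) on the log2 scale.

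The alanine aminotransferases Gpt and Gpt2 differed in layout. Gpt was at 229 to 273 CPM in WT and 261, 157 and 162 CPM in Hom livers, so Hom replicate 1 lay within the WT range. It did not pass with 6 livers (−0.38, SE 0.21) and fell without Hom replicate 1 (−0.66, SE 0.11, adjusted p = 0.00698). Gpt2, the mitochondrial form, was at 345 to 494 CPM in WT and 289, 337 and 313 CPM in Hom livers, with Hom replicate 1 the lowest. Its groups did not overlap, yet it did not pass by edgeR with 6 livers (−0.40, SE 0.15, adjusted p = 0.0713) or without Hom replicate 1 (−0.35, SE 0.17, adjusted p = 0.152). It passed by DESeq2 (adjusted p = 0.0294), with the length correction (adjusted p = 0.0350) and without WT replicate 1 (adjusted p = 0.0279). Whether the change differed between the paralogs was not tested.

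All 3 enzymes of proline and hydroxyproline breakdown fell, beside 20.1% of all tested genes. The summed level went from 746 to 902 CPM in WT to 434 to 508 CPM in Hom livers. Prodh2, which oxidises hydroxyproline, was at 163, 137 and 157 CPM in WT and 65.4, 51.4 and 59.9 CPM in Hom livers. All Hom livers were far below WT, at 38.7% of the WT mean (log2 fold change −1.37, SE 0.12, adjusted p = 0.000498), and the value without Hom replicate 1 was −1.45. Its relative Prodh, proline dehydrogenase, was at 146, 186 and 190.1 CPM in WT and 117, 107 and 93.8 CPM in Hom livers (log2 fold change −0.72, SE 0.13, adjusted p = 0.00648). Aldh4a1, the dehydrogenase that receives the products of both, was at 437, 578 and 555 CPM in WT and 326, 276 and 293 CPM in Hom livers (−0.81, SE 0.14, adjusted p = 0.00515). The groups were apart for each of the 3 genes. Aldh4a1 shares 32.5% of its exon bases with Gm21969 on the same strand.

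Histidine breakdown runs through 4 enzymes in order, and 2 of them fell, beside 20.1% of all tested genes. Hal, histidase, was at 365, 449 and 381 CPM in WT and 341, 80.3 and 152 CPM in Hom livers. Hom replicate 1 was close to WT while the other Hom livers averaged 29.2% of it, so the difference did not pass with 6 livers (−1.06, SE 0.47, adjusted p = 0.111) and passed without that liver (−1.78, SE 0.29, adjusted p = 0.00670). Uroc1, urocanase, was at 452 to 495 CPM in WT and 493, 262 and 308 CPM in Hom livers, and it did not pass with 6 livers (−0.43, adjusted p = 0.177) and fell without Hom replicate 1 (−0.74, adjusted p = 0.00645). Amdhd1, which opens the imidazolone ring, was at 239, 253 and 247 CPM in WT and 178, 130.2 and 165 CPM in Hom livers (log2 fold change −0.64, SE 0.13, adjusted p = 0.00842). Ftcd, which passes the formimino group to folate, was at 283, 368 and 315 CPM in WT and 209, 116 and 128 CPM in Hom livers. Its groups did not overlap (log2 fold change −1.09, SE 0.24, adjusted p = 0.0109), and the change without Hom replicate 1 was −1.40.

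**Figure D4:**
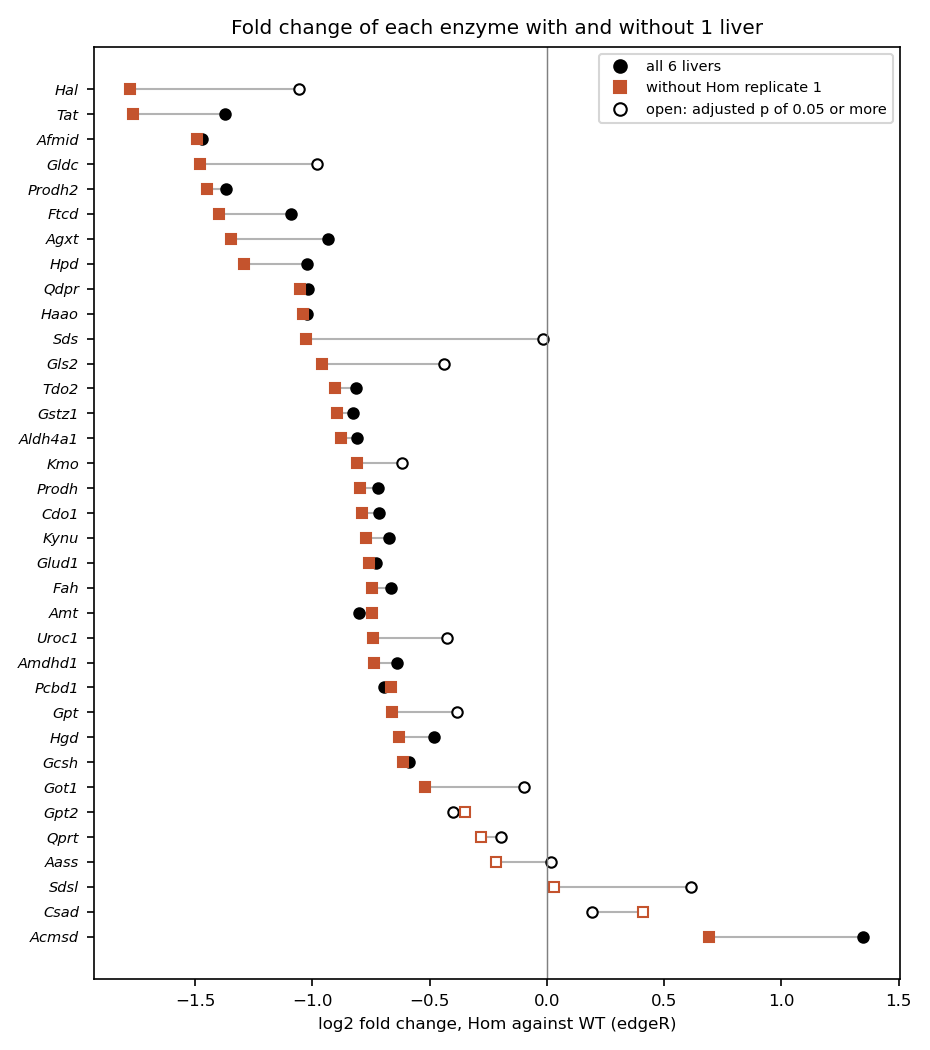
Log2 fold change of each of the 35 tested enzymes, Hom against WT (horizontal axis, edgeR), from all 6 livers (circles) and without Hom replicate 1 (squares), with open symbols at an adjusted p of 0.05 or more. The lines are longest for Sds, Hal, Acmsd, Sdsl, Gls2 and Gldc, and Afmid, Qdpr, Haao and Prodh2 hardly move.

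The remaining enzymes were those of lysine and cysteine. Aass, which starts lysine breakdown through saccharopine, was at 276, 378 and 351 CPM in WT and 441, 265 and 311 CPM in Hom livers. Hom replicate 1 was the highest of all 6 livers, the groups overlapped, and no difference passed (0.02, SE 0.21, adjusted p = 0.955), although Aass rose with library size alone (0.47, adjusted p = 0.0474). Cdo1, cysteine dioxygenase, fell from 2202, 2178 and 1766 CPM in WT to 1372, 1264 and 1109 CPM in Hom livers (log2 fold change −0.71, SE 0.16, adjusted p = 0.0126). This call was lost with library size alone, with the scaling to hepatocyte genes and without Hom replicate 3. Csad, the next enzyme towards taurine, varied most within WT, at 114, 70.9 and 247 CPM, and was at 111, 255 and 128 CPM in Hom livers. No difference was detectable against that spread (0.19, SE 0.50, adjusted p = 0.780).

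Levels of different genes were compared per length, as the TPM values of the deposited table. In WT livers Hpd (2123 ± 95.1 TPM) and Tat (2106 ± 656 TPM) were nearly level and did not differ beyond their SD (n = 3 each), and they were followed by Cdo1 (1796 ± 364 TPM) and Tdo2 (1114 ± 105 TPM), the other members above 1000 TPM. In Hom livers the order was Cdo1 (1669 ± 139 TPM), Hpd (1597 ± 352 TPM) and Tat (1189 ± 433 TPM), of which Cdo1 and Hpd did not differ beyond their SD. The leading 3 enzymes held 41.2% of the summed TPM of the 36 in the WT group and 34.8% in the Hom group. TPM carry no TMM factor, and on that scale the mean was lower in Hom livers for 22 of the 36 genes and higher for 14.

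Other genes of the same amino acid routes were counted from a list of 62, of which 58 were tested. Of these 31 (53.4%) fell and 5 (8.62%) rose, beside 20.1% and 21.5% of all tested genes. Their median log2 fold change was −0.55. With Hom replicate 1 left out, 33 fell and 4 rose, beside 18.1% and 19.2% of all genes. The 10 called genes with a change of at least 1 on the log2 scale and the smallest adjusted p all fell. Among them, Kyat3 and Kyat1 are kynurenine aminotransferases of the tryptophan route. Kyat3 was at 262, 245 and 239 CPM in WT and 53.9, 71.9 and 54.0 CPM in Hom livers (log2 fold change −2.05, adjusted p = 0.000265), and Kyat1 changed by −1.84. Hao1, the glycolate oxidase that supplies glyoxylate to Agxt, was at 171, 269 and 226 CPM in WT and 50.5, 55.2 and 70.35 CPM in Hom livers (−1.92, adjusted p = 0.000842). All Hom livers were far below WT for these genes, Hom replicate 1 included. The others were Gcat of threonine breakdown (−1.26), Pipox (−1.02) and Sardh (−1.22) of pipecolate and sarcosine oxidation, Gcdh (−1.22) and Aldh7a1 (−1.001) of lysine breakdown, and Mpst (−1.29) and Tst (−1.06) of cysteine sulfur handling. Glul, glutamine synthetase, was also in that list, at 1422, 1198 and 1321 CPM in WT and 334, 822 and 735 CPM in Hom livers (log2 fold change −1.06, adjusted p = 0.0357), and here Hom replicate 1 was the lowest of the 6 livers.

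Among 14 genes known to control these enzymes or to report on hormones that do, 9 fell and 0 rose by edgeR. This stood beside 20.1% and 21.5% of all tested genes. The median log2 fold change was −0.60, with 1 gene higher at an unadjusted p under 0.05 and 0 higher by DESeq2. Without Hom replicate 1, 9 fell and 0 rose as well (median −0.71), beside 18.1% and 19.2% of all genes. Klf15 was then at −1.29 and Tsc22d3 at −2.04. Klf15, a transcription factor known for inducing amino acid degrading enzymes, was at 276, 269.7 and 265 CPM in WT and 157, 93.5 and 128 CPM in Hom livers (−1.10, adjusted p = 0.00408). Tsc22d3, a gene known for induction by glucocorticoids, was at 246, 234 and 187 CPM in WT and 53.1, 35.99 and 72.6 CPM in Hom livers (−2.05, adjusted p = 0.00154). Hom replicate 1 was not the highest Hom liver for Tsc22d3, but it was for Klf15. Fkbp5 and Per1, also known for glucocorticoid induction, were highest among the Hom livers in replicate 1, at 93.6 and 74.4 CPM, beside 44.9 to 49.3 CPM and 33.4 to 38.6 CPM in the other Hom livers. Neither passed with 6 livers (−0.26 and 0.07), and WT livers reached 102 CPM for Fkbp5 and 61.4 CPM for Per1. What set Hom replicate 1 apart was not tested.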

How the data were processed

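Trizol-extracted RNA of 6 mouse livers (3 WT, 3 Hom) was sequenced by BGI Genomics (DNBSEQ). The submitters' processing notes name HISAT2 2.0.4, Bowtie2 2.2.5, RSEM 1.2.12 and build mm9, with no role given. The annotation and the strandedness of the counting are not given in the sources used here, so overlapping genes may share reads. For each liver the authors deposited, over 17975 genes, unscaled estimated counts (65.9% of the values whole), FPKM and TPM. The deposited FPKM values are per gene length and library size and were used only to recover gene length, and the deposited TPM values were used to rank genes. The group means in the table carry crossed names and were not used.

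After rounding, the counts were tested with edgeR 4.0.16 under R 4.3.3 (filterByExpr, TMM factors, quasi-likelihood test, 3 Hom against 3 WT livers, Benjamini-Hochberg adjustment over 13805 genes, threshold 0.05). Depth was even, at 19349418 to 19730236 counts. Standard errors are of the log2 fold change. No pair of replicates was alike within counting noise. Same-numbered livers are different mice and did not deviate together (correlations −0.109, −0.0563 and −0.0494), so the replicate number was no block in the main test. The labels do not name cultures or litters, so p-values measure the spread between these livers. In counts simulated from these livers, 63.5% of 200 genes changed by 1 on the log2 scale were recovered among 13192 genes tested, with 0.0770% of unchanged genes called.

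The members and lists were chosen with earlier results of these data known. Values for every liver were given for members that rose, for the 2 smallest adjusted p of each route and for changes of at least 1 on the log2 scale, with others named as not passing, and for pairs of paralogs. Other amino acid genes and regulators were named where called with a change of at least 1, up to 10 per list, and Glul, Fkbp5 and Per1 were added after their values were seen. Alternatives were DESeq2 1.42.0, library size alone, upper-quartile factors, scaling to secretory hepatocyte genes, a minimum of 10 counts, no filter, a replicate block, a loess correction for length, a minimum change and leaving out each liver. Exon overlaps and near copies came from GENCODE M21. A few items that the rules would have named are not reported here.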

Additional observations from a re-analysis of the deposited data

How the results depend on the processing

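The median of the tested enzymes was below that of all genes under each alternative fit, by 0.62 to 0.79 on the log2 scale. Their number was 35, or 36 with DESeq2 and with no filter. Where only the library factors changed, this gap stays nearly the same by construction. With library size alone 642 genes fell and 6574 rose, 9 enzymes fell and 3 rose, 18 other amino acid genes fell and 14 rose, and the enzyme median was −0.23. Scaled to secretory hepatocyte genes, 515 genes fell and 4536 rose, and 7 enzymes fell and 2 rose. Of the other amino acid genes 13 fell and 7 rose, and the enzyme median was −0.30. At a change of at least 1 on the log2 scale, 575 genes fell and 1825 rose. On that rule 7 enzymes fell and 1 rose, and 15 other amino acid genes fell and 2 rose. A fit with a replicate block gave 2214 genes lower and 2383 higher, 19 enzymes lower and 0 higher, and 28 other amino acid genes lower and 5 higher. The numbers do not pair these mice. DESeq2 gave 24 enzymes lower and 1 higher.

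Leaving out 1 liver at a time gave 16 to 29 enzymes lower (29 without Hom replicate 1, 16 without Hom replicate 3) and 0 to 1 higher, 23 to 34 other amino acid genes lower and 2 to 4 higher, and 1767 to 2750 genes lower and 1986 to 3057 higher. Single enzymes changed direction where they had not passed in the main comparison. With library size alone this held for Qprt (0.26), Sds (0.38), Gpt (0.058), Gpt2 (0.069), Uroc1 (0.0054) and Got1 (0.34), and with hepatocyte scaling for Qprt (0.17), Sds (0.26) and Got1 (0.23). Sds also turned with upper-quartile factors (0.072), a minimum of 10 counts (0.029) and the length correction (0.13), and Aass with the length correction (−0.055) and the replicate block (−0.0058). Leaving out 1 liver gave −1.03 to 0.33 for Sds, −0.52 to 0.080 for Got1, −0.22 to 0.17 for Aass and −0.27 to 0.82 for Csad. The cause of these shifts was not tested.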
